A study of Mus musculus with 18 samples.

Results

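A run of consecutive RefSeq transcript identifiers holds most of the mouse olfactory receptor genes. The transcripts described here are the rows of the count table whose identifier is NM_ followed by a number from 146300 to 147100, 755 rows of the 26823 in each file. A RefSeq gene table or the supplementary gene lists of the study named 742 of them, and 741 of the 742 are olfactory receptors. The other named row is Myocd, which encodes myocardin, a transcription coactivator of smooth and cardiac muscle genes. The remaining 13 rows had no symbol in either table, and 2 of these were counted in an embryo, with 3 and 1 counts. The supplementary gene lists named 74 rows of the block. The RefSeq table gave the same receptor symbol for 73 of them and no symbol for the other, which is listed as Olfr1038-ps. The label of the block therefore held for all but 1 of its named rows.

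Olfactory receptors are G protein-coupled receptors of the nose. Each mature olfactory neuron expresses one allele of a single receptor gene, while the rest of the family lies silent in heterochromatin. A bound odorant activates the G protein Golf, which raises cyclic AMP through adenylyl cyclase 3 and opens a cyclic nucleotide-gated channel. The genes lie in large clusters, and the coding sequence usually sits in a single exon.

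RNA was sequenced from 18 individual mouse 2-cell embryos of the 129SVE background. Natural matings of wild-type females with 3 wild-type males (fathers 1, 2 and 3) gave 9 embryos, and matings of wild-type females with 3 Parg(110)-/- males (fathers 6, 7 and 8) gave the other 9, with 3 embryos per father. Parg(110)-/- males lack the large isoform of poly(ADP-ribose) glycohydrolase, the enzyme that removes poly(ADP-ribose), and the study asked whether their altered sperm chromatin is followed by altered transcription in the embryo. The genotype named for an embryo is that of its father, so the level of Parg in the embryo does not check its label. The paper writes the embryos of Parg(110)-/- fathers as Parg(110)-/+. The groups therefore differ in the genotype of the embryo as well as that of the father, and the design cannot tell these apart. Embryos are named by father and embryo, so that embryo 6-1 is the first of father 6. The 9 embryos of wild-type fathers are called WT embryos and the other 9 Parg(110) embryos.

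The libraries held between 2852858 and 13355161 counts, and 1 count was worth 0.0749 to 0.351 CPM (counts per 1000000 counts of that embryo). The cDNA of each embryo was amplified before sequencing, so counts are not independent molecules, and intervals and limits given here cover counting error only. A row at 0 could hold up to 3 counts, which is 0.225 to 1.05 CPM depending on the embryo. Embryos of the same father share a sire, and a p-value over embryos treats them as independent. All 14 markers of the oocyte and 2-cell embryo were counted, with summed levels of 998 to 1656 CPM in WT embryos and 807 to 2293 CPM in Parg(110) embryos. Of the 8 cumulus cell markers, Ptx3, Tnfaip6, Amh, Foxl2 and Fshr were at 0 in all 18 embryos, and the summed level of the list was 0 to 4.17 CPM in WT embryos and 0 to 3.52 CPM in Parg(110) embryos. Of the 9 sperm and spermatid markers 6 were at 0 in all embryos, among them the protamine gene Prm1. The summed level of the sperm list was 394 to 756 CPM in WT embryos and 305 to 706 CPM in Parg(110) embryos, and Odf2, counted in all 18 embryos, held nearly all of it with a mean of 521 CPM.

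The receptors share a stretch of coding sequence at the inner end of the third membrane helix, where most members read methionine, 2 variable residues and then aspartate, arginine, tyrosine. The translated coding sequences held this pattern in 579 of 733 block receptors (79.0%), in 294 of 380 olfactory receptor genes outside the block (77.4%) and in 31 of 21481 other coding genes (0.144%). The 30 bases that start at this methionine codon are printed for 3 receptors of high mean level with this pattern in the annotation, from the mouse genome build mm9 (NCBIM37), to show the shared pattern. Capitals mark the codons for aspartate, arginine and tyrosine.

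Olfr1393, chr11:49094003-49094032, plus strand: atggcttttGACCGCTATgttgctgtgtgt
Olfr1426, chr19:12162906-12162935, minus strand: atggctctaGATCGATATgtggccatctct
Olfr282, chr15:98268253-98268282, plus strand: atggcttatGACCGCTATgctgccatctgc

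Olfr1393 and Olfr282 shared 24 of these 30 bases, and Olfr1426 shared 21 with each of them. The authors kept only reads with a single best place in the genome, so a read from a stretch that is identical in 2 receptors would not have been counted for either, and the level of a receptor with a near-identical copy is uncertain.

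The starts of these genes also differ from those of other genes. RefSeq windows from 250 bases before to 50 after the annotated start (build GRCm38.p6) were found for 639 block receptors, in 641 windows. Their median GC content was 34.7% and they held a median of 1 CpG, against 53% and 7 CpG in 32210 windows of other genes. The annotated start was the ATG itself in 73.5% of block windows and in 4.48% of the others, so for most receptors the window precedes the coding sequence and need not hold a promoter. The letters TATAAA, on either strand, stood in 42.3% of block windows and in 13.0% of the others. The windows of 2 genes are printed, with each CpG in capitals: Olfr1393, which gave the highest count of the block, and Olfr976, the receptor counted in the most embryos.

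Olfr1393, GRCm38.p6 chr11:49279900-49280199, plus strand: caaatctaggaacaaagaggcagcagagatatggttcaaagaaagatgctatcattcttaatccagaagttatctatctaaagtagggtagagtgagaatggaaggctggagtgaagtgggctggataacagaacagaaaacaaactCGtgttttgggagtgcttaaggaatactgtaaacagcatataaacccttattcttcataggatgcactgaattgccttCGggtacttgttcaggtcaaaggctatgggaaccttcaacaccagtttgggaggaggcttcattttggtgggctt
Olfr976, GRCm38.p6 chr9:39960995-39961294, minus strand: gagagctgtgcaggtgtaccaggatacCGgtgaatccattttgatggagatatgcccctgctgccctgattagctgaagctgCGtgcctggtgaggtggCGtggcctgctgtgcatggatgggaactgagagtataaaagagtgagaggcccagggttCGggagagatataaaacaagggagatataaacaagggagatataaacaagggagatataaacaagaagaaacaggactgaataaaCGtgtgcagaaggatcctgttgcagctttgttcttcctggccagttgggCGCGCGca

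The window of Olfr976 lies at an upstream start and does not hold the ATG at its start position. It has 8 CpG and 5 matches of TATAAA on the printed strand, against 2 CpG and 1 match for Olfr1393. The 15-base stretch AAACAAGGGAGATAT, the most repeated of that length in the window, stands in it 3 times. It was found on the annotated strand in 3 of all 32851 windows, this one included. These matches are descriptions of the windows only, and the stretch was chosen after the window was seen.

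The block was nearly silent at the 2-cell stage. Of its 755 rows 152 (20.1%) had at least 1 count in any of the 18 embryos, against 84.0% of all rows. Of these 152 rows 124 (81.6%) were counted in exactly 1 embryo, against 11.4% of all counted rows, and no row of the block was counted in all 18. There were 209 pairs of a row and an embryo with a count. In 39 of these pairs the count was 1, in 103 it was 2 to 9, and in 67 it was 10 or more. Only 4 pairs reached 100 counts. They were Olfr1393 in embryo 6-1, Olfr92 in embryo 7-2, Olfr11 in embryo 3-2 and Olfr1426 in embryo 6-2.

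Other chemoreceptor families had similar shares of rows counted in at least 1 embryo. Olfactory receptor rows outside the block were counted in 93 of 364 cases (25.5%), and 83.9% of those 93 were seen in 1 embryo. Vomeronasal receptors, which detect pheromones, were counted in 94 of 348 rows (27.0%), with 62.8% of them in 1 embryo. Taste receptors were counted in 8 of 38 rows (21.1%), and 5 of the 8 were seen in 1 embryo. Differences between these families were not tested, since their rows share the same 18 libraries.

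**Figure D1:**
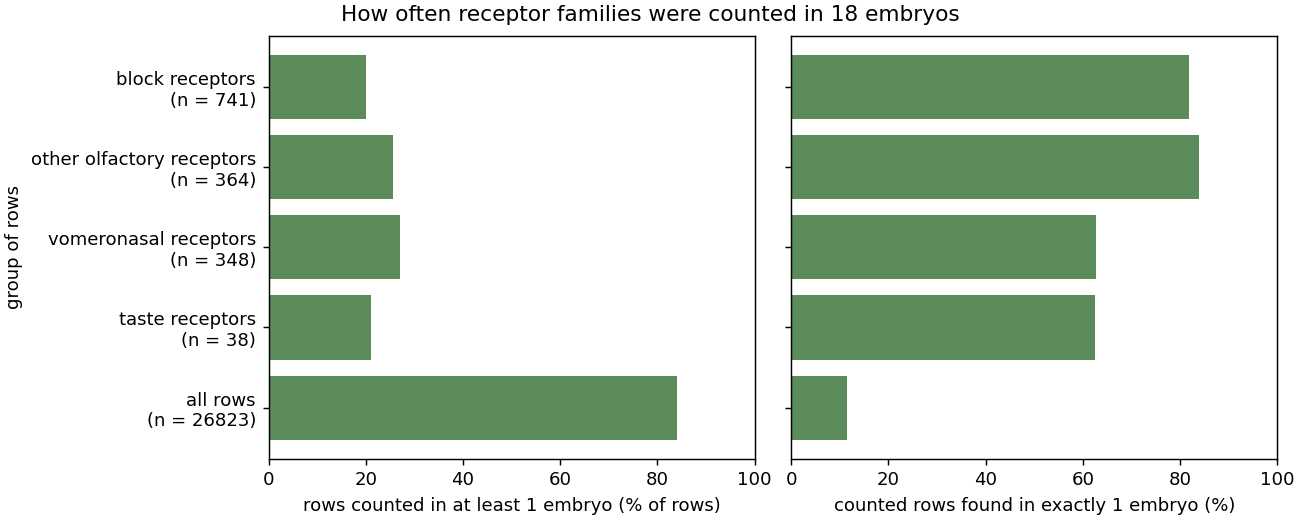
Percentage of rows counted in at least 1 of 18 embryos (left) and, among the counted rows, percentage found in exactly 1 embryo (right), for block receptors, 3 other receptor families and all rows. Each receptor family is counted in 20.1 to 27.0% of its rows, against 84.0% of all rows.

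The counted and uncounted receptors had similar gene structures. The median exon length was 957 bases in both. Genes with more than 1 exon made up 17.6% of 148 counted receptors and 15.5% of 588 uncounted ones. The exons of 2 of the 148 counted receptors overlapped another gene. One is Olfr98, whose exon overlaps the opposite-strand transcript Gm20429, and the other is Olfr20, which overlaps Spata22, a meiotic gene, on the same strand. By chromosome, the share of receptors counted ran from 13.4% of 97 on chromosome 9 and 13.7% of 205 on chromosome 2 to 37.9% of 29 on chromosome 17, among chromosomes with at least 20 receptors.

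The number of block rows counted did not separate the groups. It was 8, 13 and 11 in the embryos of father 1, 26, 19 and 1 in those of father 2, and 10, 26 and 10 in those of father 3. It was 7, 12 and 14 in the embryos of father 6, 16, 4 and 9 in those of father 7, and 9, 5 and 9 in those of father 8. The WT embryos thus held both the lowest and the highest values and covered the whole range of the Parg(110) embryos.

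The mean was 13.8 ± 8.36 rows in WT embryos (SD, n = 9) and 9.44 ± 3.97 in Parg(110) embryos (SD, n = 9). The difference of 4.33 rows was smaller than the WT spread and larger than the Parg(110) spread. Without embryo 2-1, or without embryo 3-2, the WT mean was 12.25 rows and the Parg(110) minus WT difference -2.81 rows. Over all rows the means were 14071 ± 1218 and 12854 ± 693 (SD, n = 9 each), also lower in Parg(110) embryos. Set against that number, the block gave 0.951 ± 0.541 rows per 1000 counted rows in WT embryos and 0.725 ± 0.277 in Parg(110) embryos (SD, n = 9 each). Rows with at least 10 counts numbered 3.78 ± 2.82 in WT embryos and 3.67 ± 1.00 in Parg(110) embryos (SD, n = 9 each). Embryo 2-3, with 1 row counted, had the fewest counts of all libraries, 2852858. Embryo 6-1 had 12497060 counts and 7 rows, and embryo 3-2 had 7594021 counts and 26 rows. The part of depth in the difference between groups was not tested, but after thinning to the smallest library the expected means were 10.5 and 7.87 rows.

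Read by row, 85 of the 152 counted rows (55.9%) were seen only in WT embryos, 50 (32.9%) only in Parg(110) embryos and 17 (11.2%) in both. Over all counted rows, 2649 (11.8%) were seen only in WT embryos, 1301 (5.78%) only in Parg(110) embryos and 18576 (82.5%) in both. Of the 19 rows counted in exactly 2 embryos, 3 were shared by embryos of the same father.

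Summed over the block, the level varied widely between embryos. It was 5.90, 14.3 and 7.49 CPM in embryos 1-1, 1-2 and 1-3, 15.9, 20.6 and 0.701 CPM in 2-1, 2-2 and 2-3, and 9.20, 54.8 and 18.9 CPM in 3-1, 3-2 and 3-3. It was 53.6, 33.6 and 14.5 CPM in embryos 6-1, 6-2 and 6-3, 21.8, 26.0 and 14.8 CPM in 7-1, 7-2 and 7-3, and 16.0, 13.1 and 12.5 CPM in 8-1, 8-2 and 8-3. Embryos 3-2 and 6-1, 1 of each group, stood far above the rest. The mean was 16.4 ± 15.8 CPM in WT embryos and 22.9 ± 13.5 CPM in Parg(110) embryos (SD, n = 9 each), with medians of 14.3 and 16.0 CPM, and the difference of 6.47 CPM was smaller than the spread in either group. It rested on few embryos, being 2.63 CPM without embryo 6-1 and 11.3 CPM without embryo 3-2, when the WT embryos gave 11.6 ± 6.91 CPM (SD, n = 8). With a father left out it was 2.87 CPM without father 1, 12.1 without father 3, 0.955 without father 6 and 11.0 without father 8.

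By father the means were 9.22 ± 4.44, 12.4 ± 10.4 and 27.6 ± 24.0 CPM for fathers 1, 2 and 3, and 33.9 ± 19.6, 20.9 ± 5.68 and 13.9 ± 1.88 CPM for fathers 6, 7 and 8 (SD, n = 3 each). The fathers of the 2 genotypes overlapped.

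A single receptor often made up much of an embryo's sum. The highest row held 17.5 to 100% of the block's counts in WT embryos (median 29.2%) and 29.2 to 85.4% in Parg(110) embryos (median 41.8%). Without the highest row of each embryo the sums were 11.5 ± 10.5 CPM in WT embryos and 10.1 ± 4.85 CPM in Parg(110) embryos (SD, n = 9 each), so the higher mean of the Parg(110) embryos came from their leading rows. The leading row differed from embryo to embryo, with 17 different rows in 18 embryos. Olfr976 alone led more than 1, and did so in embryos 8-1 and 8-2.

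**Figure D2:**
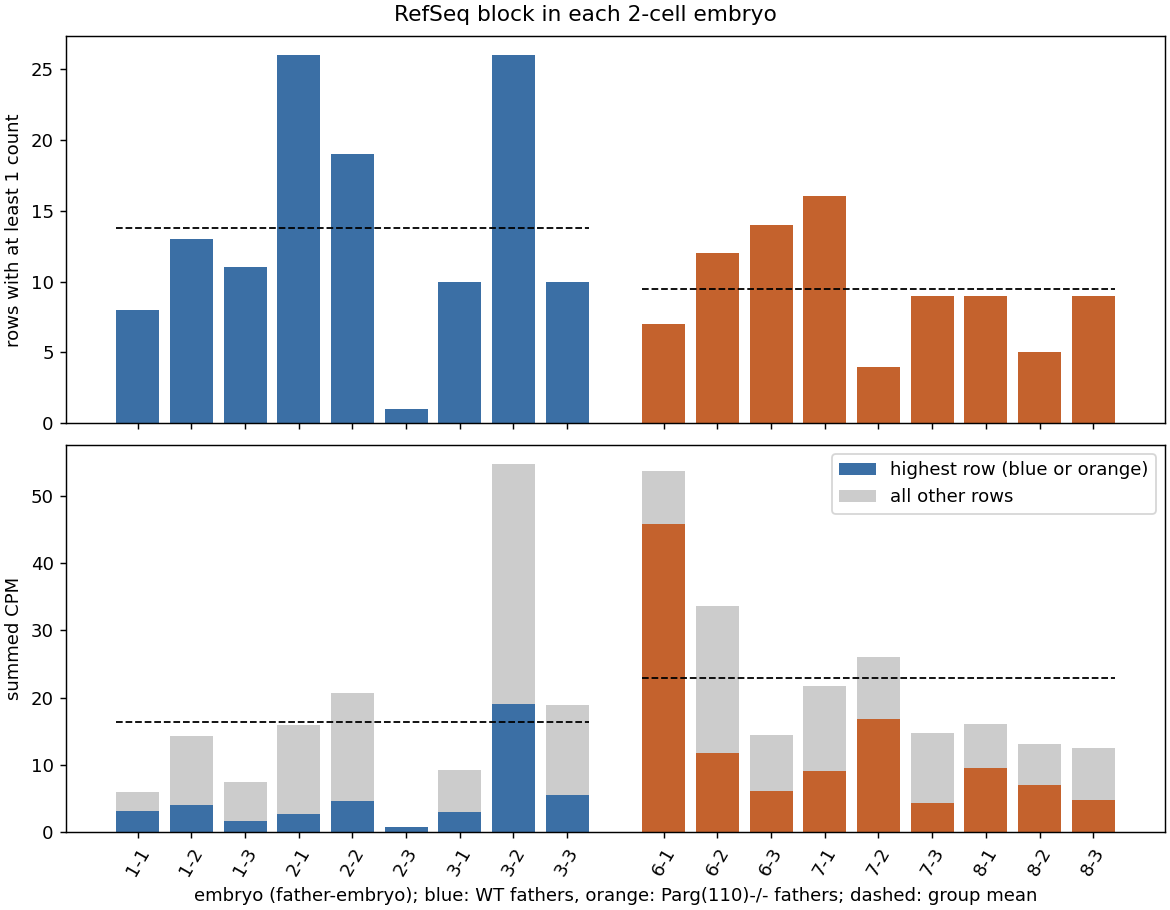
Block rows with at least 1 count (top) and summed CPM of the block (bottom) in each of 18 embryos; in the lower panel the coloured part is the highest row, the grey part all other rows, and dashed lines are group means. The groups overlap in both panels, and 1 row, Olfr1393, makes up 85.4% of the block in embryo 6-1.

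Only 2 rows of the block, Olfr976 and Myocd, reached 10 counts in at least 3 embryos, the minimum for the comparison of the 9 Parg(110) with the 9 WT embryos. Neither passed a threshold of 0.1 on p-values adjusted by the Benjamini-Hochberg method from the quasi-likelihood test of edgeR, and neither had an unadjusted p under 0.05. Over all 15333 rows tested, edgeR called 0 (0%), and 889 (5.8%) had an unadjusted p under 0.05. DESeq2 called 38 of them (0.248%), limma-voom with the father as a random effect called 0, and no row of the block was among the calls of any of these tools. DESeq2 gave an adjusted p of 0.994 for Olfr976 and none for Myocd, so its result on the block rests on Olfr976.

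Olfr976 (NM_146367, mm9 chr9:39762343-39764554, minus strand) was the receptor seen most widely, in 8 embryos. It had 3 counts in embryo 1-2, 10 in 2-1, 33 in 2-2 and 69 in 3-2, and 0 in the other 5 WT embryos. It had 4 counts in embryo 6-1, 30 in 6-2, 34 in 8-1 and 40 in 8-2, and 0 in the other 5 Parg(110) embryos. The groups overlapped fully, with 4 of 9 embryos counted in each and top levels of 9.09 CPM in WT and 9.55 CPM in Parg(110) embryos. The means were 1.59 ± 3.10 and 2.22 ± 3.63 CPM (SD, n = 9 each), a log2 fold change of 0.43 ± 1.62 (SE; edgeR adjusted p = 1.00). No embryo of father 7 held the transcript.

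Myocd (NM_146386, mm9 chr11:64990063-65083491, minus strand) is not a receptor. Its row may share reads with another isoform of the gene outside the block, since how isoforms were counted is not given. It was counted in 9 embryos, with 29, 12, 11, 1 and 14 counts in embryos 1-2, 1-3, 2-1, 2-2 and 3-2, and with 10, 12, 43 and 3 counts in 6-3, 7-1, 7-2 and 7-3. All 3 embryos of father 7 held it and no embryo of father 8 did. The mean level was 0.953 ± 1.39 CPM in WT and 0.952 ± 1.58 CPM in Parg(110) embryos (SD, n = 9 each), with a log2 fold change of 0.02 ± 1.50 (SE; edgeR adjusted p = 1.00).

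The signs of both changes depended on which fathers were included. For Olfr976 the log2 fold change was -1.42 without father 8 and -0.12 without father 1. For Myocd it was -2.48 without father 7, -0.40 without father 2 and -0.23 without father 3, and no adjusted p was under 0.1.

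**Figure D3:**
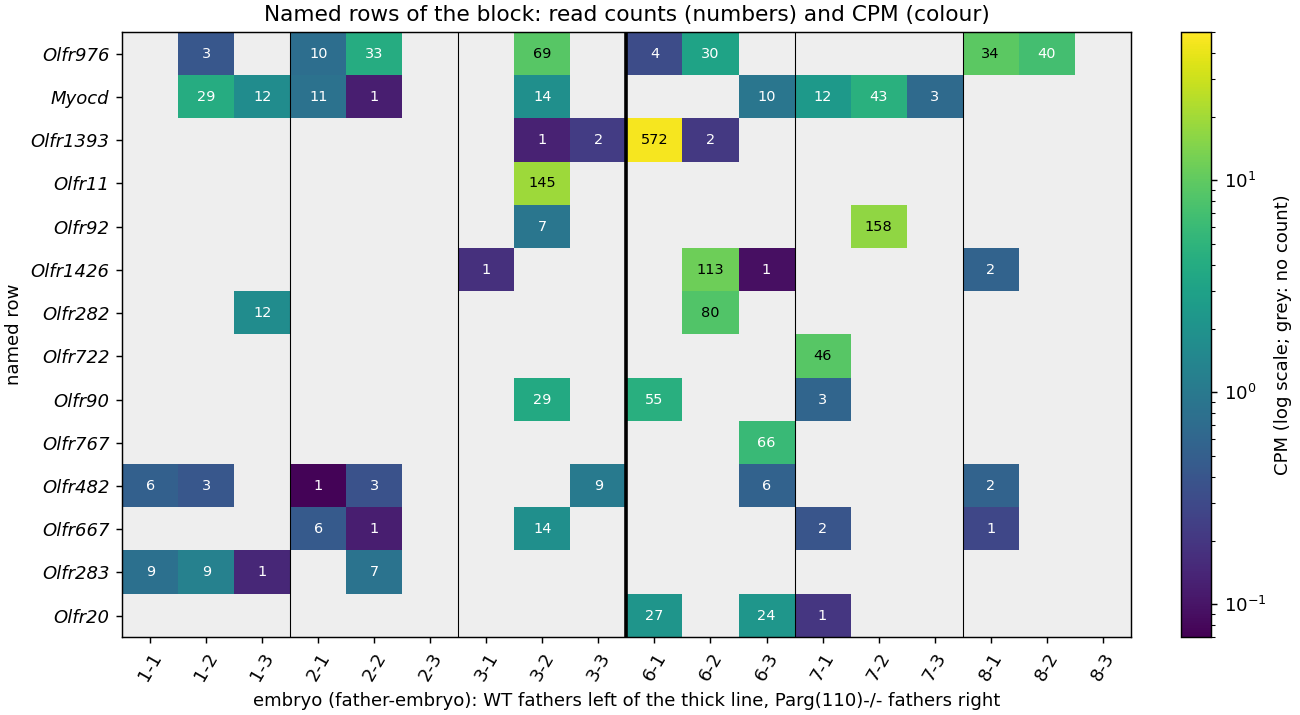
Read counts (numbers) and CPM (colour, log scale, grey for no count) of the 14 named rows in each embryo, with WT embryos left of the thick line and thin lines between fathers. Most rows fill 1 to 4 embryos, and the highest square is Olfr1393 in embryo 6-1 with 572 counts.

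The study compared each Parg(110) embryo by itself with the 9 WT embryos, and those comparisons were repeated over rows with at least 10 counts in at least 1 of the 10 embryos. Between 30 and 33 block rows entered each of the 9 fits. A row absent from WT embryos could enter only by being high in the embryo under test, so the number that passed carries no weight as a count. In embryo 6-1, 1 block row was called, Olfr1393, among 5 calls over 18499 rows (0.027%); DESeq2 also called it, among 849 calls (4.59%). No block row was called in the other 8 embryos. There edgeR called 0.0108% of the rows tested in 6-2, 0.0162% in 6-3, 0.157% in 7-1, 0.157% in 7-2, 0.103% in 7-3, 0% in 8-1, 0.0545% in 8-2 and 0% in 8-3. DESeq2 called 358 to 1758 rows in these 8 embryos and likewise none of the block. At an unadjusted edgeR p under 0.05 there were 24 block tests of 286 over the 9 fits (8.39%) and 5.72% of all tests. In each of these 24 no WT embryo reached 10 counts, so the row had entered through the embryo under test, and neither the number nor its direction is a result. The adjustment was made within each fit and not over the 9 embryos.

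Olfr1393 (NM_146471, mm9 chr11:49093652-49094587, plus strand, 1 exon) encodes an olfactory receptor and is the sequence printed first in both sets above. Embryo 6-1 had 572 counts, or 45.8 CPM. The only other counts were 2 in embryo 6-2 of the same father, 1 in 3-2 and 2 in 3-3, and the remaining 14 embryos had none. The highest of these low values was 0.225 CPM. Against the pooled WT embryos, with 3 counts in 72038438, the level was 1099-fold higher (exact 95% interval 374 to 5345, counting error only). The log2 fold change was 9.70 ± 1.64 (SE; edgeR adjusted p = 0.0466), and DESeq2 gave 9.85 with an adjusted p of 0.00504. The row entered the fit only through the 572 counts of the embryo under test, so its p-values come from the value that admitted it and are given as a description. The fit also rests on a single Parg(110) embryo, which is assumed to vary as the WT embryos do. With the embryos of WT father 1, 2 or 3 left out, the log2 fold change was 9.23, 9.27 and 11.69, and edgeR's adjusted p rose to 0.159, 0.153 and 0.229, past the threshold.

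Comparing the 3 embryos of each Parg(110)-/- father with the 9 WT embryos, edgeR called no row of the block. It tested 2 block rows in each of these fits, and 0 had an unadjusted p under 0.05. Over all rows it called 1 of 14377 for father 6 (0.00696%), 0 of 14039 for father 7 (0%) and 0 of 13936 for father 8 (0%). DESeq2 called 189, 356 and 289 rows in these fits, none of them in the block. The comparisons by group, father and embryo all use the same 9 WT embryos.

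The other receptors with high mean levels each owed them to 1 embryo or a few. Olfr11 (NM_146542, mm9 chr13:21730449-21731390) had 145 counts (19.1 CPM) in embryo 3-2 and none elsewhere. Olfr92 (NM_146456, mm9 chr17:37247987-37248925) had 158 counts (16.9 CPM) in embryo 7-2 and 7 (0.922 CPM) in 3-2. Olfr722 had 46 counts (9.11 CPM) in embryo 7-1 alone, and Olfr767 had 66 counts (6.06 CPM) in 6-3 alone. Each of the 4 reached its top level in a different embryo.

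Embryo 6-2 held several receptors. Olfr1426 (NM_146809, mm9 chr19:12162102-12166337) had 113 counts (11.8 CPM) there, 1 in 6-3, 2 in 8-1 and 1 in 3-1. Olfr282 (NM_146457, mm9 chr15:98267901-98268828) had 80 counts (8.36 CPM) in 6-2 and 12 (1.73 CPM) in embryo 1-3. Olfr30 had 57 counts (5.96 CPM) in 6-2 alone, and Olfr976 had 30 (3.13 CPM) there. In the single-embryo fit Olfr1426 had a log2 fold change of 8.53 ± 2.08 (SE), and Olfr92 in embryo 7-2 had 7.22 ± 2.21 (SE). Each row entered its fit only through the embryo under test, so these values are descriptions.

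Olfr90 was counted in 3 embryos of 3 fathers, with 55 counts (4.40 CPM) in 6-1, 29 (3.82 CPM) in 3-2 and 3 (0.594 CPM) in 7-1. Embryo 3-2, with the largest sum of the block, held 7 of the 14 named rows: Olfr976, Myocd, Olfr1393, Olfr11, Olfr92, Olfr90 and Olfr667. Embryos 2-3 and 8-3 held none of the 14.

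Several receptors recurred at low counts. Olfr482 was counted in 7 embryos, with 6, 3, 1, 3 and 9 counts in 1-1, 1-2, 2-1, 2-2 and 3-3, and with 6 and 2 counts in 6-3 and 8-1. Olfr667 was counted in 5, with 6, 1 and 14 counts in 2-1, 2-2 and 3-2, and with 2 and 1 in 7-1 and 8-1. Both occurred in both groups and at no more than 1.84 CPM.

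Of the 9 block rows counted in at least 3 embryos, Olfr283 and Olfr20 were each seen in a single group. The share of such rows over the whole table was not computed, so this carries no weight as a count. Olfr283 (NM_147036, mm9 chr15:98208527-98209628) had 9, 9 and 1 counts in the 3 embryos of father 1 and 7 counts in 2-2, up to 1.26 CPM, and none in any Parg(110) embryo. Olfr20 (NM_146923, mm9 chr11:73164341-73168201) had 27 counts in 6-1, 24 in 6-3 and 1 in 7-1, up to 2.20 CPM, and none in any WT embryo. Neither reached 10 counts in 3 embryos, so neither was tested between the groups. Olfr20 entered the single-embryo fits of 6-1 and 6-3 only through those embryos. Its log2 fold changes there, 7.23 and 7.21, are therefore descriptions. Where its exons overlap those of Spata22 on the same strand, reads of the 2 genes cannot be told apart.

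Genes for the proteins through which olfactory receptors signal were counted more widely than the receptors, most of them at low levels. Of the 16 signalling genes listed, 14 were counted in some embryo, and Omp, the classical marker of mature olfactory neurons, and Rtp1, a chaperone that brings receptors to the cell surface, were at 0 in all 18. Gnb1, a G protein beta subunit of broad use, and Gnas, the general stimulatory alpha subunit, were counted in every embryo, with means of 120 ± 37.8 and 89.4 ± 55.6 CPM in WT and 91.8 ± 40.1 and 62.6 ± 42.4 CPM in Parg(110) embryos (SD, n = 9 each). Gng13 and Ric8b were each counted in 14 embryos, at up to 13.6 and 10.8 CPM, and Rtp2 in 6 at up to 2.94 CPM. Gnal, the alpha subunit of Golf, was counted in 6 embryos at up to 3.81 CPM. Adcy3, the olfactory adenylyl cyclase, was counted in 8 at up to 20.8 CPM in 1 Parg(110) embryo, and the channel subunit Cnga2 in 4 at up to 1.38 CPM. Cnga4 was counted in 5 at up to 11.9 CPM in 1 Parg(110) embryo, and Ano2 in 7 at up to 12.9 CPM in 1 WT embryo. Stoml3 had 12.9 CPM in 1 Parg(110) embryo alone. Cngb1 and Slc24a4 were counted in 1 and 2 embryos at up to 0.528 and 0.351 CPM. Over the 8 markers of olfactory neurons the summed level was 0.140 to 14.9 CPM in WT and 0 to 20.8 CPM in Parg(110) embryos.

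Of the 16 signalling genes 8 could be tested between the groups, and none passed the adjusted test of edgeR in either direction. Their median log2 fold change was -0.44, against -0.02 over all rows tested. Reep1, which helps receptors reach the membrane, was the 1 gene with an unadjusted p under 0.05, at a log2 fold change of 4.12 ± 1.82 (SE; edgeR adjusted p = 0.805), with 0.208 ± 0.390 CPM in WT and 3.54 ± 7.69 CPM in Parg(110) embryos (SD, n = 9 each).

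Most of the listed regulators of receptor choice were counted widely. Of 10 genes listed all were counted and 7 were counted in all 18 embryos. Ehmt1, which with Ehmt2 methylates histone H3 at lysine 9, had a mean of 129 CPM over all embryos, Ldb1, the partner of Lhx2 at receptor enhancers, 128 CPM, Cbx5, a heterochromatin protein, 121 CPM, and Lbr, the lamin B receptor, whose absence from olfactory neurons goes with the clustering of silent receptor genes, 80.1 CPM. Kdm1a, the histone demethylase LSD1, had means of 25.8 ± 16.6 CPM in WT and 24.2 ± 24.1 CPM in Parg(110) embryos (SD, n = 9 each). The neuronal factors Lhx2 and Ebf1 were counted in only 6 and 2 embryos, with means of 1.41 and 0.0235 CPM over all embryos. Emx2, also listed, was counted in 16 with a mean of 17.0 CPM, at up to 72.1 CPM in WT and 105 CPM in Parg(110) embryos. Of the 10, 9 were tested between the groups and none passed in either direction, with a median log2 fold change of -0.14. The nearest were Cbx5, with 0.48 ± 0.25 (SE; edgeR adjusted p = 0.877), and Ldb1, with -0.80 ± 0.42 (SE; edgeR adjusted p = 0.889).

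**Figure D4:**
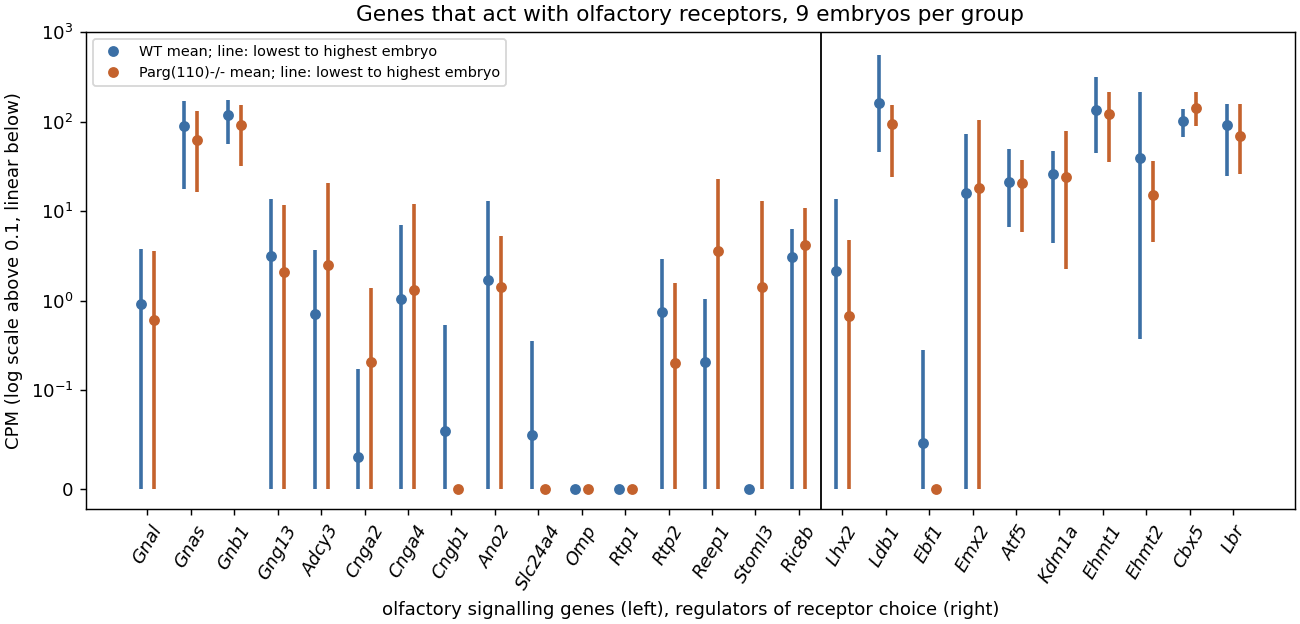
Mean CPM (points) and lowest to highest embryo (lines) of 16 olfactory signalling genes and 10 regulators of receptor choice in 9 WT and 9 Parg(110) embryos, on an axis that is logarithmic above 0.1 CPM and linear below. The lines of the groups overlap for each gene counted in both, and Omp and Rtp1 sit at 0.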

How the data were processed

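The authors amplified the cDNA of single embryos, mapped reads to mm9 with RUM (up to 1 mismatch, unique reads only) and deposited raw counts per RefSeq transcript, which were used as deposited. DESeq 1.10.0 stands in the submitters' processing notes. The counting tool and its treatment of strand are not given in the sources used here. Amplification from 1 embryo can lose rare transcripts and widen the spread between embryos.

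Counts were tested over all rows that reached 10 counts in 3 or more embryos by edgeR 4.0.16 (TMM, quasi-likelihood test, Benjamini-Hochberg over all rows, threshold 0.1) in R 4.3.3, after the script was tested on simulated data. Single-embryo fits used rows that reached 10 counts in any embryo. DESeq2 1.42.0, limma 3.58.1, other filters, a threshold of 0.05, and left-out fathers or embryos were alternatives. CPM is a count divided by the total of the embryo. Rows counted and summed CPM were described without a test. Gene positions came from GENCODE vM1. Of 26823 rows 26132 matched a RefSeq symbol, and genes with several rows are given by the row of highest mean.

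The members and gene lists were chosen with earlier results of these data known. Named rows are those passing the filter, the 10 of highest mean CPM, the 10 seen in the most embryos (9 reached 3 embryos), and any called or with the smallest p. Other rows named were chosen after their values were seen. Chi-squared over its degrees of freedom was 104 or more in each of 153 pairs of embryos, so no library was present more than once.

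One further receptor stretch that the rule for sequences chose is not reported here.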

Additional observations from a re-analysis of the deposited data

Results flagged for a closer look

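In 16 of 27 sets of 9 values examined (a measure in the embryos of 1 group), 1 embryo lay far above the other 8. About 1 set in 20 would pass this limit by chance if the values were normally distributed, but most of these sets hold many zeros. Most of the rows were also chosen for a high mean over the same embryos, so the number of sets carries no weight. A row counted in 1 embryo of a group meets the limit by construction. The summed level of the block was 54.8 CPM in WT embryo 3-2, with 20.6 CPM in the next WT embryo. The same embryo stood apart for Olfr976 (9.09 CPM), Olfr11 (19.1 CPM), Olfr92 (0.922 CPM), Olfr90 (3.82 CPM) and Olfr667 (1.84 CPM). Other WT embryos stood apart for Myocd (4.05 CPM in 1-2), Olfr1426 (0.174 CPM, 1 count, in 3-1) and Olfr282 (1.73 CPM in 1-3). Among Parg(110) embryos, 6-1 stood apart for Olfr1393 (45.8 CPM) and Olfr90 (4.40 CPM), 6-2 for Olfr1426 (11.8 CPM) and Olfr282 (8.36 CPM), 6-3 for Olfr767 (6.06 CPM), 7-1 for Olfr722 (9.11 CPM) and 7-2 for Olfr92 (16.9 CPM). The cause of these values was not tested.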

How the results depend on the processing

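Calls of block rows between the groups and for the fathers were 0 under all alternatives run. Without a filter, 98 of 152 block rows and 4447 of 22526 rows had an unadjusted edgeR p under 0.05 between the groups, and none of the block passed the adjusted threshold. Of the 152 rows 124 were counted in only 1 embryo. A row counted in 1 embryo cannot show a difference between the groups, so these numbers are not a result. The 1 call over the 9 single-embryo fits, Olfr1393, became 0 with at least 10 counts required in 3 embryos, because the row was then not tested, and was 0 to 0 calls with each WT father left out. It was 1 with DESeq2, without a filter and at a threshold of 0.05. Between the groups, the log2 fold change of Olfr976 ran from -1.42 to 1.22 and that of Myocd from -2.48 to 1.07 with a father left out; the reversed values were -0.12 and -1.42 for Olfr976 and -0.40, -0.23 and -2.48 for Myocd, and Myocd was also reversed with the father as a random effect (-0.24). The Parg(110) minus WT difference in rows counted was -4.33, and -5.93 to -2.81 with a father or embryo left out. It was -0.11 for rows of at least 10 counts, -2.64 after thinning and -2.56 with 26 rows removed whose counts equalled those of another block row in every embryo. Such rows can be different receptors with the same low count, so this removal does not single out duplicate entries. The difference in summed CPM was 6.47, 0.955 to 12.1 with a father or embryo left out, 6.72 with TMM scaling and -1.37 without each embryo's highest row. Embryo numbers did not pair the samples (27 pairs of equal number, median r 0.00248, from -0.105 to 0.167), and with the embryo number as a replicate block the block rows called stayed at 0, with log2 fold changes of 1.22 for Olfr976 and 0.31 for Myocd. Depth limits these values, since 39 of 209 pairs of row and embryo rest on 1 count.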
